A study of Homo sapiens with 6 samples.

Results

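Promoter peaks with a canonical E-box were the Myc peaks whose summit lay within 1 kb of a protein-coding transcription start site (TSS) of the basic annotation and within 50 bp of the sequence CACGTG. They numbered 497 of 3720 peaks in parental replicate 1 and 433 of 5719 in parental replicate 2. In TKO cells they numbered 974 of 27213 peaks in replicate 1 and 853 of 25887 in replicate 2. Peaks that overlapped by at least 1 bp were merged, and 1470 of the 33436 merged sites of the 4 lists held such a peak. The lists came from Myc chromatin immunoprecipitation sequencing (ChIP-seq) of MDA-MB-231, an established triple-negative breast cancer cell line. Parental cells were compared with TKO cells, the same line after CRISPR/Cas9 deletion of TXNIP, which encodes thioredoxin interacting protein. The TKO cells were grown from single edited cells, so that a difference between clones and the loss of TXNIP cannot be told apart. Both lines were cultured in the same medium, 1 Myc antibody was used throughout, each line had 2 Myc libraries, and input chromatin of each line was the control for peak calling.

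Myc binds DNA as a dimer with Max through the basic helix-loop-helix leucine zipper domain of each partner. The preferred site of the dimer is the palindromic E-box CACGTG, each subunit contacting 1 end of the palindrome, and the bases beside it modulate binding. Other factors of the same domain family, among them the upstream stimulatory factors, CLOCK with BMAL1, MondoA and ChREBP with Mlx, and TFEB, use the same core sequence. Myc also occupies active promoters that lack an E-box.

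The sequences below are the E-boxes under the peaks on which the results turn, each with 12 bases to either side, 5′ to 3′ on the plus strand of GRCh37, and capitals mark every whole E-box. The 6 shown next are from the 10 promoter E-box sites of highest fold percentile found in all 4 libraries, and most have the flanks that make the octamer CCACGTGG or CCACGTGC.
G6PC3 (chr17:42148038-42148067): tgcaacagtggcCACGTGgggccctgagga
SNX5 (chr20:17949317-17949346): gggcaaagacgcCACGTGgggcctaccctt
KLF16 (chr19:1864256-1864285): ccgcccccaggcCACGTGcgcgacccttcc
PUS1 (chr12:132413788-132413817): tccgccttcgccCACGTGgtccggctccgg
NME1 (chr17:49230942-49230971): agtgctgcgaacCACGTGggtcccgggcgc
NSUN2 (chr5:6633180-6633209): aaaccaaggcccCACGTGtccgggcctggt

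The next sequences are from long-known Myc target genes whose promoters held an E-box peak in all 4 libraries. NPM1 is shown for its pair of E-boxes and NCL for its flanks.
NPM1 (chr5:170815566-170815595): aaccgctgggagCACGTGgttgcCACGTGg
NCL (chr2:232328551-232328580): tccggggcccacCACGTGtcggcttgccag
ODC1 (chr2:10588929-10588958): cgatgtgctggcCACGTGggccccgccggg
LDHA (chr11:18415913-18415942): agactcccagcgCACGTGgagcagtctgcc
GNL3 (chr3:52720042-52720071): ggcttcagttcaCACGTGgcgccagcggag

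The last set lay at promoter E-box sites found in both TKO lists but no parental one. HK2 and PHPT1 are among those of highest percentile by fold, whereas ATP6V1A, LAMP1, PIP4P1 and PGK1 were chosen after their values were seen, for the T that stands before CACGTG on 1 or both strands.
HK2 (chr2:75062091-75062120): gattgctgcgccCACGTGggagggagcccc
PHPT1 (chr9:139743719-139743748): gcgattggtcagCACGTGcctcggtcggcg
ATP6V1A (chr3:113465533-113465562): aagttttaagatCACGTGattggcccaaac
LAMP1 (chr13:113951350-113951379): accaggccgggtCACGTGggtccagggtca
PIP4P1 (chr14:20929906-20929935): tgctcaactggtCACGTGtttctggaagct
PGK1 (chrX:77166040-77166069): cgcgttccttttCACGTGaccagtcgctct

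Depth, as recovered from the lists, came to 26.4 and 22.2 M reads for the parental Myc libraries and to 19.9 and 13.0 M for those of TKO cells. The TKO lists were the longer ones and their libraries the shallower by this measure, and how depth bears on list length was not tested. With 2 libraries against 2 the smallest exact two-sided permutation p is 0.333, so no comparison of the cell lines could pass 0.05. The p-values measure the spread between these libraries, which the study describes as biological replicates, while the labels do not say whether they came from separate cultures. TXNIP had no promoter peak in any library and no CACGTG within 1 kb of a start site, and a Myc peak list cannot check the knockout. The paper describes a double E-box in the TXNIP promoter for which Myc and MondoA can compete. Only the exact sequence CACGTG was searched for here.

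The number of promoter peaks with an E-box was higher in TKO cells, with both TKO libraries above both parental ones. The means were 465 ± 45.3 (SD, n = 2) in parental cells and 914 ± 85.6 (SD, n = 2) in TKO cells, a ratio of 1.96 (exact permutation p = 0.333). Promoter peaks without an E-box differed more, with means of 1825 ± 120 and 10915 ± 49.5 (SD, n = 2), a ratio of 5.98. The E-box was found at a smaller share of promoter peaks in TKO cells. It was at 22.2% (95% exact binomial confidence interval 20.5% to 24.0%) and 18.5% (16.9% to 20.1%) of promoter peaks in the parental libraries. In the TKO libraries it was at 8.17% (7.68% to 8.67%) and 7.27% (6.81% to 7.75%), and the mean share differed by -12.6 percentage points (exact permutation p = 0.333). These intervals cover counting error only.

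**Figure D1:**
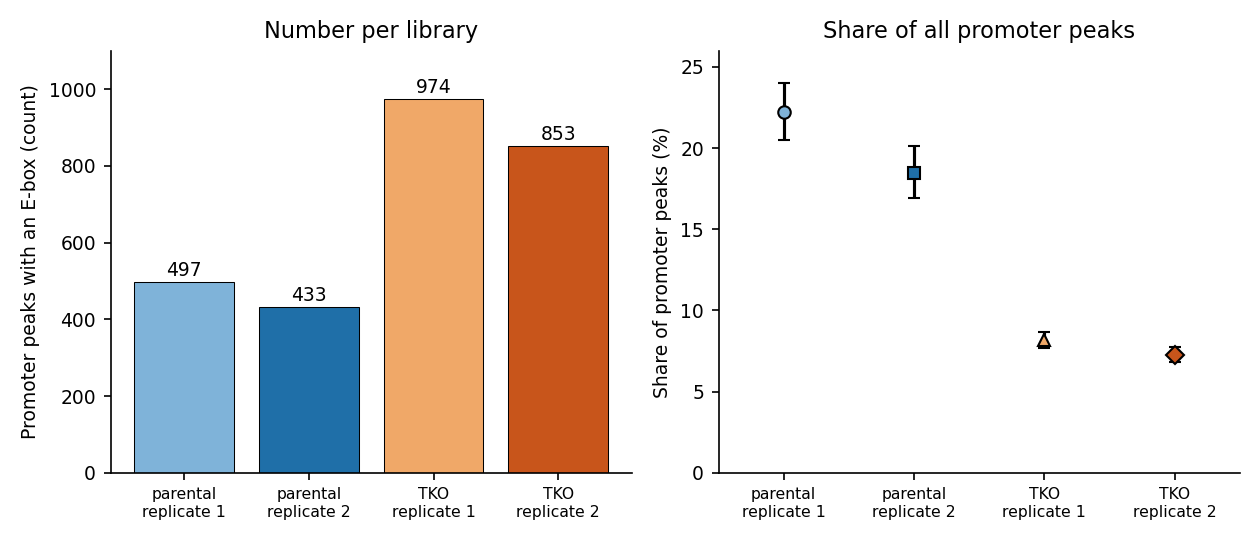
Promoter peaks with an E-box in each Myc library. Left, bars give their number, 497 and 433 in parental cells against 974 and 853 in TKO cells; right, points give their share of all promoter peaks in percent with the 95% exact binomial confidence interval, about 20% in parental cells and below 9% in TKO cells.

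Both differences were smaller between lists of equal length. When each list was reduced to its 3720 peaks of smallest p-value, the parental libraries had 497 and 337 promoter peaks with an E-box and the TKO libraries 442 and 408. The ratio of means was then 1.02 and the groups overlapped. The E-box shares of promoter peaks were 22.2% and 21.3% in the parental lists and 19.4% and 17.6% in the TKO lists at that length, still not overlapping.

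The E-box was concentrated among the strongest promoter peaks of every library. Of the 250 promoter peaks of smallest p-value, 40.0% (33.9% to 46.4%) and 39.2% (33.1% to 45.6%) had an E-box in the parental libraries. In TKO replicates 1 and 2 these shares were 31.2% (25.5% to 37.3%) and 37.6% (31.6% to 43.9%). At ranks 1001 to 2000 the shares were 18.6% and 14.5% in parental cells against 16.3% and 14.3% in TKO cells. The intervals of the 4 libraries overlapped in every range down to rank 2000. Beyond rank 8000, which only the TKO lists reach, 3.87% and 3.35% of promoter peaks had an E-box. For comparison, 2.94% of all 55751 protein-coding start sites have CACGTG within 50 bp.

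**Figure D2:**
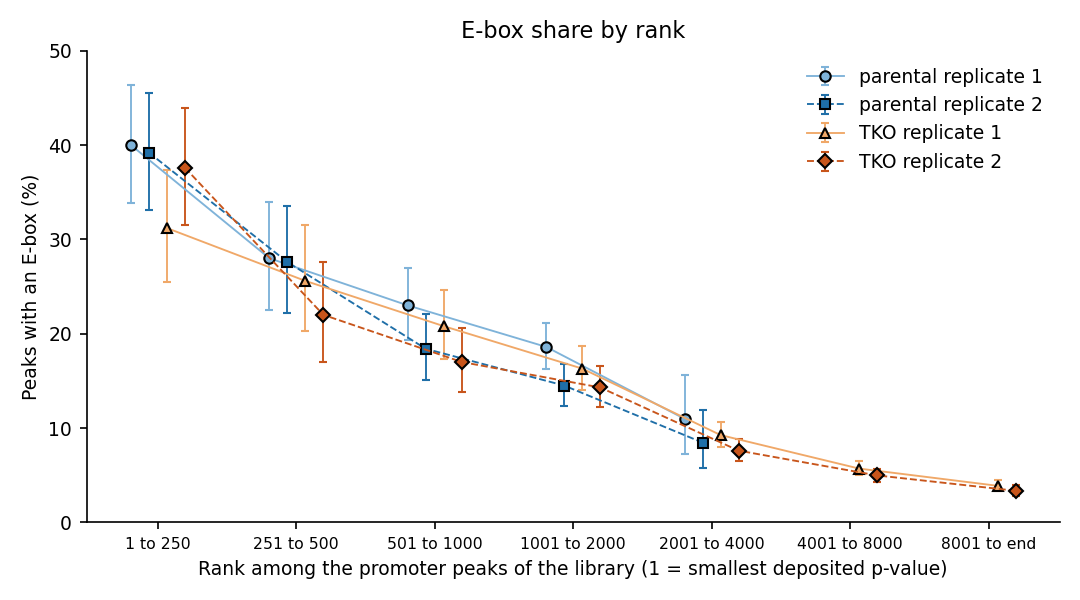
Share of promoter peaks with an E-box, in percent, by rank of the peak among the promoter peaks of its library. Points are the 4 Myc libraries and bars are 95% exact binomial confidence intervals; the share fell from between 31.2% and 40.0% at ranks 1 to 250 to below 4% at the end of the TKO lists.

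Within each library the members were stronger than the other promoter peaks. Ranked by the authors' fold enrichment within the whole list, the median member stood at a percentile of 66.4 and 69.7 among parental peaks against 83.7 and 84.9 in TKO cells. Other promoter peaks had medians of 50.7 and 50.5 in parental cells against 58.1 and 58.9 in TKO cells. The difference was positive in 4 of 4 libraries, with a mean of 21.6 percentile points (exact sign-flip permutation p = 0.125, the smallest that 4 libraries allow). Percentiles depend on the length of a list and are not compared between cell lines. Members were 40.7% and 37.3% of the promoter peaks in the top 10% of the parental lists and 19.9% and 19.4% of those in the TKO lists. Median peak width was 260 and 263 bp for members against 228 and 230.5 bp for other promoter peaks in parental cells, and 544 and 537 bp against 379 and 399 bp in TKO cells. The GC content of the 201 bp around the summit did not separate members from other promoter peaks, with medians between 63.2% and 64.2% in both.

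E-boxes clustered at the summits of promoter peaks. Within 50 bp of the summit there were 2.43 and 1.99 E-boxes per 100 promoter peaks per 10 bp in parental cells against 0.886 and 0.786 in TKO cells. At 450 to 500 bp from the summit the density was 0.268 and 0.213 in parental cells against 0.174 and 0.184 in TKO cells. The density at the summit was thus 9.07 and 9.32 times the outer density in parental cells and 5.08 and 4.27 times in TKO cells. The median distance from the summit to the nearest E-box of a member was 20.5 and 18.5 bp in parental cells against 21.5 bp in each TKO library. At the edge of the motif window, 67, 68, 161 and 151 members of parental replicates 1 and 2 and TKO replicates 1 and 2 had their nearest E-box in the last 10 bp inside it. In the 10 bp just outside lay the nearest E-box of 52, 67, 126 and 119 further promoter peaks. At the edge of the promoter window, 7, 3, 19 and 23 members had a summit 900 to 1000 bp from a start site, and 5, 6, 19 and 16 E-box peaks had one within the next 100 bp.

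**Figure D3:**
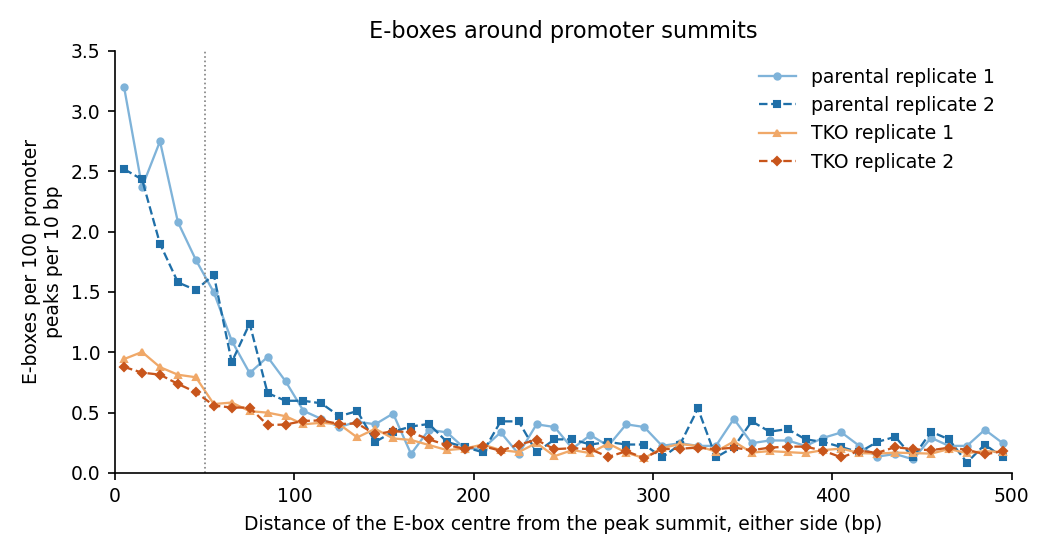
E-boxes around the summits of all promoter peaks, as E-boxes per 100 peaks per 10 bp against the distance of the E-box centre from the summit on either side. Lines are the 4 Myc libraries and the dotted line marks the 50 bp window. Density is highest within 20 bp of the summit in each library. It is higher in parental than in TKO cells throughout the 50 bp window, and the lines cross farther out.

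Of the sites with a promoter E-box peak, nearly all that were called in parental cells were called again in TKO cells. Of 546 such sites called in both parental libraries, 542 (99.3%, 98.1% to 99.8%) were called in both TKO libraries. Promoter sites without an E-box gave a like share, 1010 of 1015, with a background of 99.5%. No promoter site, with or without an E-box, was found in both parental libraries and in neither TKO library. Taken singly, 666 of 670 E-box sites of parental replicate 1 and 630 of 639 of parental replicate 2 were called in both TKO libraries.

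A smaller share of E-box sites than of other promoter sites was TKO-only. The intervals did not overlap, but they cover counting error only, and sites are not replicates. Of 1323 promoter E-box sites that both TKO lists held, 569 (43.0%, 40.3% to 45.7%) lacked a peak in either parental list. Among promoter sites without an E-box the background was 75.7% (74.7% to 76.6%), 6002 of 7931. With lists of 3720 peaks each, the shares were 8.07% with and 21.0% without an E-box. A site counted as an E-box site when any of the 4 lists put a summit near the motif, and with the status taken from the TKO peaks alone the shares were 49.0% and 74.2%. The share was lower for E-box sites at each of these settings, while its size depended on the length of the lists. Of all 1470 promoter E-box sites, 542 were shared by the 4 libraries, 569 were TKO-only and 359 had another pattern.

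Summits moved between libraries, and this bears on the membership of single peaks. Between replicates the summit of a shared E-box site moved by a median of 34 bp in parental cells against 28 bp in TKO cells, and between cell lines by 35 to 39 bp. As a result, 174 of the 542 shared sites were member peaks in each of the 4 libraries and 117 in 1 library only. The reads, fold and percentile given below for a site are those of its strongest peak in each library, which need not be the member peak.

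At shared sites, reads at the summit were higher in TKO cells. The median was 1.48 and 1.44 RPM (summit reads per 1000000 reads of depth) in the parental libraries and 3.61 and 4.14 in the TKO libraries. Setting each TKO library against each parental one gave median ratios of 2.40 to 2.75. Both TKO values were above both parental values at 540 of 542 sites (99.6%), against a background of 98.0% over all 2631 shared sites. On the log2 scale the median level differed by 1.41 (exact permutation p = 0.333). The reads were recovered with an extension of 182 and 201 bp in TKO cells and 140 and 151 bp in parental cells, and a longer extension raises them. With reads scaled to the genome background of each library the difference was 1.01 on the log2 scale.

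The difference at E-box sites was close to that at other promoter sites. Shared promoter sites without an E-box had medians of 1.36 and 1.40 RPM in parental cells against 3.26 and 3.68 in TKO cells, with median ratios of 2.36 to 2.71. The median log2 level of E-box sites exceeded that of the others by 0.12 and 0.05 in the parental libraries and by 0.15 and 0.17 in the TKO libraries. The difference of these differences was 0.08 on the log2 scale, with both TKO libraries above both parental ones (exact permutation p = 0.333, the smallest possible). Over the alternative settings it lay between 0.03 and 0.18. It was 0.03 with lists of equal length and also with E-box status from the TKO peaks alone. At both of these settings the cell lines overlapped (exact permutation p = 0.667). Among single E-box sites the mean log2 difference ranged from 0.33 to 2.75, with a median of 1.38 and 10th and 90th percentiles of 1.03 and 1.72, and it was below 0 at none of the 542 sites.

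**Figure D4:**
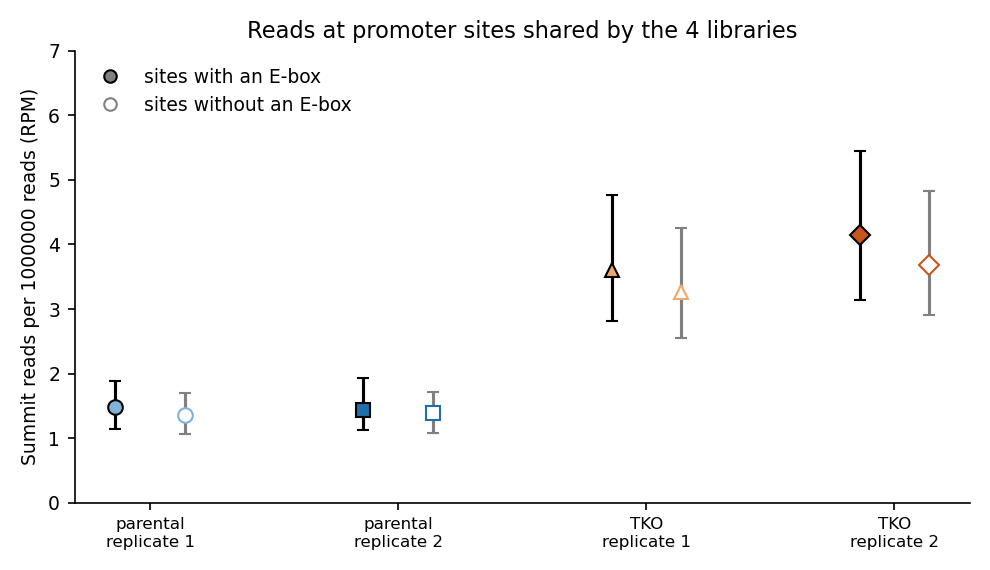
Summit reads per 1000000 reads of depth (RPM) at promoter sites shared by the 4 Myc libraries, for 542 sites with an E-box (filled) and 1010 sites without (open). Points are medians over sites and bars run from the lower to the upper quartile; both TKO libraries lie above both parental ones for both kinds of site.

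The shared site of highest mean percentile by fold lay at G6PC3, which encodes a ubiquitous glucose-6-phosphatase. It had 5.64 and 5.05 RPM in the parental libraries and 10.7 and 15.2 in the TKO libraries, with 2 E-boxes in the window and the summit 54 bp upstream of the nearest start site, in a UTR of another annotated transcript. The site of SNX5, an endosomal sorting nexin, and MGME1, a mitochondrial exonuclease, had 5.34 and 4.01 RPM in parental cells against 10.8 and 13.0 in TKO cells. Both sites were member peaks in all 4 libraries.
At KLF16, a Krüppel-like transcription factor gene, the values were 2.46 and 2.57 in parental cells against 7.17 and 8.44 RPM in TKO cells, 694 bp upstream of the start site. At PUS1, which encodes a pseudouridine synthase of tRNA, they were 1.97 and 2.34 against 3.96 and 5.37, with the summit 8 bp downstream of the start site in a UTR. At NME1, a nucleoside diphosphate kinase gene long used as a Myc target, they were 5.26 and 4.87 against 11.3 and 12.4 RPM. In each of these genes the TKO libraries did not overlap the parental ones, as at 540 of the 542 shared E-box sites.
Another of these shared sites belonged to SPRYD4. DDX21, a nucleolar RNA helicase gene, had 3.63 and 3.56 RPM in parental cells against 8.07 and 9.13 in TKO cells, in an intron 721 bp downstream of the start site. NSUN2, an RNA cytosine methyltransferase gene next to SRD5A1, had 1.93 and 2.21 against 5.82 and 6.14. IARS1, the isoleucyl-tRNA synthetase gene, had 3.59 and 3.29 against 9.02 and 10.5, and its peak met the E-box rule in 1 library only.

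The TKO-only sites named here are the 5 of highest mean percentile by fold, and others had more RPM, such as C6orf132 with 3.36 and 3.91, which was picked after its values were seen. ANKRD28, which encodes an ankyrin repeat protein, had 3.06 and 2.99 RPM in the TKO libraries, 399 bp upstream of its start site. COPS7A, a subunit of the COP9 signalosome, had 2.66 and 2.07. PHPT1, a phosphohistidine phosphatase gene, had 3.01 and 3.84, and its E-box was under the summit in both TKO libraries.
HK2, which encodes hexokinase 2, the enzyme that phosphorylates glucose on entry, had 2.26 and 2.53 RPM and 2 E-boxes in the window in TKO replicate 1. The site between WRN, a RecQ helicase gene, and PURG on chromosome 8 had 1.85 and 2.07. The median over all TKO-only E-box sites was 1.35 and 1.69 RPM in TKO replicates 1 and 2.

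Shared and TKO-only E-box sites differed in position and composition within the TKO libraries. Among sites whose strongest peak was a member, the median distance to the nearest start site was 141.5 bp at shared and 248 bp at TKO-only sites in replicate 1, and 116.5 and 251 bp in replicate 2. The observed over expected ratio of CpG around the summit had medians of 0.821 and 0.739 in replicate 1 and 0.813 and 0.730 in replicate 2. Median percentile by fold was 96.0 at shared and 65.8 at TKO-only sites in replicate 1, and 95.9 and 65.7 in replicate 2. Sites are not replicates, so these values describe the libraries.

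The sequence of a promoter E-box alone was a weak guide to its occupancy. There were 9212 E-boxes within 1 kb of a protein-coding start site, and a promoter summit lay within 50 bp of 529 (5.74%) and 451 (4.90%) of them in parental cells. In TKO cells it was 1014 (11.0%) and 894 (9.70%), so that the means stood at a ratio of 1.95 (two-sided exact permutation p = 0.333). These 4 shares were taken as the background for the groups of E-boxes that follow. Counting any peak that covers the E-box, 9.52% and 9.03% were covered in parental cells against 30.8% and 29.3% in TKO cells.

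Flanking bases went with occupancy in each library. The symmetrical octamer CCACGTGG was bound most often, at 10.4% and 9.38% of its 1045 promoter copies in parental cells against 17.2% and 14.4% in TKO cells. CCACGTGC followed with 8.60% and 6.64% in parental cells against 14.6% and 12.6% in TKO cells. Octamers are named so that a sequence and its reverse complement count together.
At the other end, ACACGTGT was bound least often in the TKO libraries, at 3.25% of its copies in each parental library and at 6.07% and 4.77% in TKO cells, a ratio of 1.67. ACACGTGA was bound at 2.19% and 1.90% in parental cells against 6.14% and 5.70% in TKO cells. GCACGTGA was bound at 2.41% and 1.78% against 8.13% and 7.24%, which at a ratio of means of 3.67 was the highest of the 10 octamers. For CCACGTGG the ratio of means was 1.59, the lowest of the 10. The 4 octamers with a T before CACGTG on either strand, which are those written here with a final A, had the 4 highest ratios, between 2.31 and 3.67.

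E-boxes with such a T were grouped after these values were seen. Of 3454 T-flanked promoter E-boxes, 3.16% and 2.61% were bound in parental cells against 8.28% and 7.41% in TKO cells, with a ratio of 2.72 between the means. Of 5758 E-boxes without it, 7.29% and 6.27% were bound in parental cells against 12.6% and 11.1% in TKO cells, a ratio of 1.75. Within 200 bp of a start site the ratios were 2.56 and 1.41. Where the CpG ratio was at least 0.6 they were 2.46 and 1.56.
The T-flanked form made up 18.9% (15.6% to 22.6%) and 19.2% (15.6% to 23.2%) of members in parental cells against 27.5% (24.7% to 30.4%) and 27.7% (24.7% to 30.8%) in TKO cells. The difference was 8.55 percentage points (exact permutation p = 0.333). Because the group was formed from the ratios of these same libraries, this p-value is not an independent test. Within TKO replicate 1 it was at 13.8% (10.3% to 17.9%) of shared sites and 38.0% (33.2% to 42.9%) of TKO-only sites. In replicate 2 the shares were 14.3% (10.7% to 18.6%) and 38.1% (32.9% to 43.6%). For comparison, 3454 of all 9212 promoter E-boxes were T-flanked, counted over E-boxes and not over sites. That share lay inside the intervals of the TKO-only sites and above those of the shared sites in both TKO libraries. Against all promoter E-boxes, the T-flanked form was thus less frequent at shared sites and not more frequent at TKO-only sites.
T-flanked members were also the weaker ones of each list, with median percentiles of 45.0 and 43.2 in parental cells against 71.5 and 68.8 in TKO cells. Members without the T had medians of 70.1, 76.2, 87.4 and 89.2. With 3720 peaks in each list the T-flanked shares were 18.9% and 13.6% in parental cells against 16.3% and 16.2% in TKO cells. At that length the cell lines differed by -0.0486 percentage points (exact permutation p = 1). The higher T-flanked share of TKO members was thus seen in the lists as deposited and not in lists of equal length.

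The share of members whose nearest E-box was CCACGTGG was 20.9% and 21.2% in parental cells against 17.9% and 17.0% in TKO cells, a difference of -3.65 percentage points (exact permutation p = 0.333). With lists of equal length the difference was -1.51.

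Bound E-boxes lay close to the start site. In the first 100 bp downstream of it, 14.4% and 12.1% of E-boxes were bound in parental cells against 20.6% and 18.8% in TKO cells, the highest of the 8 position ranges examined. Between 500 and 1000 bp downstream the shares were 2.25% and 1.70% in parental cells against 7.91% and 7.42% in TKO cells. The ratio of means was 3.88 in that range, and between 1.49 and 2.46 in the other ranges. E-boxes in CpG-rich surroundings, with a CpG ratio of at least 0.6, were bound at 10.1% and 8.43% in parental cells against 17.1% and 15.7% in TKO cells. Those in CpG-poor surroundings were bound at 1.49% and 1.47% against 5.15% and 3.95%.

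**Figure D5:**
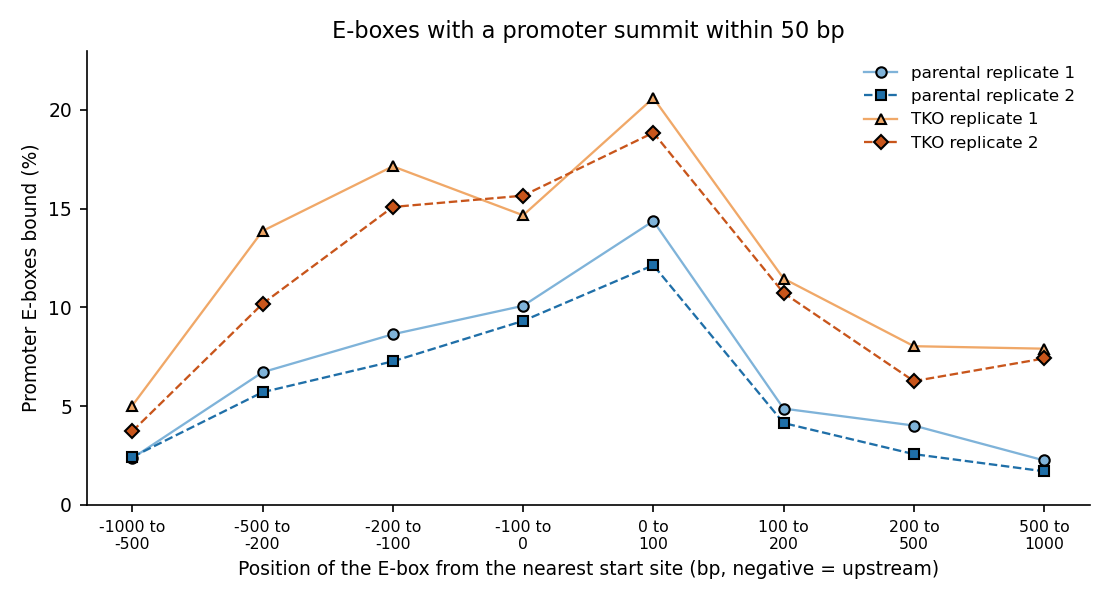
Share of promoter E-boxes with a promoter summit within 50 bp, in percent, by position of the E-box from the nearest protein-coding start site in bp. Lines are the 4 Myc libraries; in each the share peaks from 0 to 100 bp downstream of the start site, and it is higher in both TKO libraries than in both parental ones in all 8 ranges.

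Members lay more often upstream than downstream of the nearest start site. The summit was upstream for 62.0% and 67.0% of members in parental cells against 57.1% and 56.5% in TKO cells. Of other promoter peaks it was so for 53.9%, 61.4%, 48.7% and 49.0% in the same order of libraries. Summits lay outside annotated genes for 46.7% and 49.7% of members in parental cells against 41.3% and 40.2% in TKO cells. They lay in an intron for 24.7% of members in each parental library and for 32.4% and 31.4% in TKO cells. UTRs held 23.5%, 22.6%, 19.4% and 21.6% of the summits of the 4 libraries, and coding sequence at most 6.88%.

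Most members had a single E-box. A share of 6.24% and 4.16% had 2 or more within 50 bp of the summit in parental cells, and 3.90% and 4.10% in TKO cells, a difference of -1.19 percentage points (exact permutation p = 0.333). Within a motif window of 25 bp this difference was in the opposite direction, 0.682 percentage points. The 4 lists held 85 distinct pairs of neighbouring E-boxes, with a median spacing of 30 bp from centre to centre and a range of 6 to 91 bp. A spacing of 11 bp, as in the NPM1 sequence above, was found for 2 pairs.

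The densest groups outside UTRs were at PPRC1, INO80 and GET4, whose summit windows of 101 bp are shown because they hold 3 or 4 E-boxes each. The windows of PPRC1 and INO80 are those of TKO replicate 1, and that of GET4 is from TKO replicate 2.
PPRC1 (chr10:103893387-103893487): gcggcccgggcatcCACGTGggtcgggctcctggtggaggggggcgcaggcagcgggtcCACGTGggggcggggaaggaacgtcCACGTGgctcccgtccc
INO80 (chr15:41407822-41407922): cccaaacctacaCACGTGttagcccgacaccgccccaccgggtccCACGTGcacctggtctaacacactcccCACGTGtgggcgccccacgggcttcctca
GET4 (chr7:915948-916048): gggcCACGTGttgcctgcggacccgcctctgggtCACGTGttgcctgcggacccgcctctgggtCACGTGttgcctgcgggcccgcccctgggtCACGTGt

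PPRC1 encodes a coactivator related to PGC-1, and its shared site, 640 bp downstream of the start site, had 2.80 and 2.52 RPM in the parental libraries and 7.22 and 8.67 in the TKO libraries. INO80 encodes a chromatin-remodelling ATPase, and its shared site 606 bp downstream had 1.67 and 1.44 against 4.31 and 4.45 RPM. The cell lines did not overlap at either site, as at 540 of the 542 shared E-box sites. At GET4, a gene for insertion of tail-anchored proteins, the E-boxes are units of a tandem repeat, and whether its reads map uniquely was not tested. It had 1.55 and 2.45 RPM in TKO cells and 0.984 in parental replicate 1, and was not called in the other parental library.

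Genes with an E-box promoter peak numbered 570 and 503 in parental cells against 1060 and 945 in TKO cells, of 19785 protein-coding genes. The means, 536.5 ± 47.4 and 1002.5 ± 81.3 (SD, n = 2), had a ratio of 1.87 (exact permutation p = 0.333), which was 1.02 with lists of equal length. As background for the gene groups that follow, 2.88% and 2.54% of all genes had such a peak in the parental libraries and 5.36% and 4.78% in the TKO libraries. In all 4 libraries 206 genes (1.04%) had one, and 246 genes (1.24%) had one in both TKO lists but no parental one. A promoter peak of any kind was at 12.2%, 12.9%, 49.1% and 49.7% of genes in the 4 libraries. Some genes belong to several groups.

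Nucleolar ribosome biogenesis genes, whose products process and assemble ribosomal RNA, had the highest share of the 14 gene groups in 3 of the 4 libraries. Of 39, 22 and 18 had an E-box promoter peak in parental cells against 14 and 19 in TKO cells, and 11 had one in all 4 libraries. Nearly all had some promoter peak, 38 and 35 in parental cells against 39 in each TKO library. In 30 of the 39 (76.9%) an E-box stands within 1 kb of a start site, against 35.7% of all genes. The shares of all genes given as background include genes with no such E-box.
GNL3, the nucleostemin gene, had 4.05 and 3.97 RPM in parental cells against 9.17 and 9.97 in TKO cells. NCL, which encodes nucleolin, had 2.12 and 2.75 against 6.92 and 6.75. GAR1, a core protein of the RNPs that guide pseudouridylation, had 2.91 and 2.25 against 6.02 and 6.83. RRS1, a ribosome assembly factor gene, had 2.16 and 1.94 against 5.41 and 5.68. All 4 genes had both TKO values above both parental values, as did 540 of the 542 shared E-box sites. CAD, which is no member of this group but whose promoter E-box is often used to study Myc, had 1.85 and 1.53 against 4.06 and 4.07, and its peak met the E-box rule in the parental libraries only; it is named here after its values were seen.

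Of 32 classic Myc target genes, 12 and 13 had an E-box promoter peak in parental cells against 12 and 15 in TKO cells, and 8 had one in all 4 libraries. In 26 of the 32 (81.25%) an E-box stands within 1 kb of a start site, against 35.7% of all genes. NPM1, which encodes nucleophosmin, had 2.80 and 2.66 RPM in parental cells against 8.07 and 8.67 in TKO cells, with the summit 39 bp upstream of the start site. EIF4A1, the helicase of cap-dependent translation initiation, had 2.38 and 2.79 against 8.17 and 9.36. LDHA, lactate dehydrogenase A, had 1.74 and 2.12 against 4.56 and 6.29. ODC1, which encodes ornithine decarboxylase at the entry of polyamine synthesis, had 0.984 and 1.13 against 2.61 and 3.68, and its E-box lay 0.5 bp from the summit. In these genes too the cell lines did not overlap, as at 540 of the 542 shared E-box sites.

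Nucleotide and one-carbon synthesis genes had an E-box peak at 8 and 7 of 28 in parental cells against 8 and 9 in TKO cells, with 3 in all 4 libraries. ATIC, the enzyme of the last steps of purine synthesis, had 1.21 and 0.766 RPM in parental cells against 3.36 and 3.91 in TKO cells. MTHFD1L, which makes formate in mitochondria, had 0.719 and 1.04 against 2.36 and 2.99. Polyamine genes had an E-box peak at 3 and 1 of 10 in parental cells against 2 in each TKO library, of which ODC1 alone was in all 4. Glycolysis and glucose uptake genes had one at 2 of 18 in each parental library and at 7 and 3 in the TKO libraries, and LDHA alone in all 4. An E-box stands within 1 kb of a start site in 60.7% of the nucleotide, 60% of the polyamine and 77.8% of the glycolysis genes. Over all genes that share is 35.7%. PGK1, phosphoglycerate kinase of glycolysis, shares a TKO-only site with ATP7A, which had 2.66 and 2.99 RPM over TCACGTGA.

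Few of the ribosomal protein genes with a promoter peak had an E-box peak. Of 88 cytosolic ribosomal protein genes, 82 and 76 had a promoter peak in parental cells against 84 in each TKO library. An E-box promoter peak was at 6 and 2 of the 88 in parental cells against 5 and 4 in TKO cells. For comparison, of all protein-coding genes with a promoter peak, 570 of 2418 and 503 of 2550 had an E-box peak in parental cells. In TKO cells it was 1060 of 9719 and 945 of 9843. Counted over genes with or without a promoter peak, the group was not low. Its share was 6.82% against the 2.88% of all genes in parental replicate 1. In the other libraries it was 2.27%, 5.68% and 4.55% against 2.54%, 5.36% and 4.78%.
Mitochondrial ribosomal protein genes had an E-box peak at 3 of 78 in each parental library and at 4 and 3 in TKO cells, although a promoter peak of any kind was at 32 and 27 genes in the parental libraries and at 77 in each TKO library. MRPL3, with 2.99 and 2.25 against 6.22 and 6.75 RPM, and MRPL45, with 2.12 and 2.48 against 4.06 and 5.37, had one in all 4 libraries.
Among 69 genes with an EIF or EEF symbol, which include some enzymes that modify the factors, 8 had an E-box peak in each parental library and 12 and 9 in the TKO libraries. The 3 found in all 4 libraries were EIF4A1, EIF3E, a gene of the scaffold that joins the small ribosomal subunit to mRNA, and EEF1AKMT4, an eEF1A methyltransferase gene that shares its site with ALG3. EIF3E had 1.44 and 1.49 RPM in parental cells against 4.16 and 4.37 in TKO cells.

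Chaperonin and heat shock protein genes had an E-box peak at 2 and 1 of 14 in parental cells against 0 and 2 in TKO cells, while 14 had some promoter peak in each TKO library. Aminoacyl-tRNA synthetase genes had one at 1 and 3 of 20 in parental cells against 1 in each TKO library. VARS1, the valyl-tRNA synthetase gene, had it in all 4, with 1.55 and 1.26 RPM in parental cells against 2.26 and 2.84 in TKO cells. Of 508 ZNF genes, 13 and 15 had an E-box peak in parental cells against 27 and 22 in TKO cells, 7 of them in all 4 libraries, which is near the share of all genes. The highest ranked of these was ZNF460, with 3.44 and 4.33 RPM against 7.67 and 7.29. ZNF331 had 1.29 and 1.35 against 3.06 and 4.91, ZNF628 had 1.97 and 1.49 against 4.01 and 3.68, and ZNF593 had 1.21 and 0.992 against 2.66 and 3.22.

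Lysosome and autophagy genes, many of them targets of TFEB, had an E-box promoter peak at 0 and 2 of 38 in parental cells against 10 and 6 in TKO cells. A promoter peak of any kind was at 2 and 4 of them in parental cells against 33 and 36 in TKO cells. In 30 of the 38 genes (78.9%) an E-box stands within 1 kb of a start site, against 35.7% of all genes. Those with an E-box peak in both TKO lists but no parental one were ATP6V1A, LAMP1 and PIP4P1, 7.89% of the group against the background of 1.24%, which includes the genes with no E-box within 1 kb.
ATP6V1A, the catalytic A subunit of the proton pump that acidifies lysosomes, shares its site with NAA50 and had 0.852 and 1.38 RPM in the TKO libraries, over the octamer TCACGTGA. LAMP1, a major lysosomal membrane protein, had 1.15 and 1.53 over CCACGTGA. PIP4P1, a lysosomal phosphatase gene that shares its site with PNP, had 1.30 and 1.92 over ACACGTGA. By fold, the sites of ATP6V1A and PIP4P1 stood at percentiles 23.2 and 40.3 and 27.2 and 2.91 of the TKO lists, below the TKO-only medians, and that of LAMP1 at 73.5 and 81.3, above them. Each has a T before the E-box, and with a peak in only 1 cell line there is no parental value to set beside them.

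Circadian clock genes, whose E-boxes serve CLOCK and BMAL1, had an E-box peak at 0 and 1 of 17 in parental cells against 3 in each TKO library. A promoter peak of any kind was at 1 and 3 of them in parental cells against 12 and 13 in TKO cells. An E-box stands within 1 kb of a start site in 13 of the 17 (76.5%), against 35.7% of all genes. PER1, a repressor of the clock, had 1.50 and 1.99 RPM in TKO cells, 161 bp upstream of its start site. TEF, a transcription factor gene driven by the clock, had 1.40 and 1.07 RPM, 61 bp upstream. Neither had a parental peak there. In the Max and Mlx network 2 and 1 of 14 genes had an E-box peak in parental cells against 2 in each TKO library, and none had one in all 4.

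Among genes the study examined singly, SLC18B1, a vesicular polyamine transporter gene, had an E-box peak in parental replicate 2 and TKO replicate 2. Its site had 2.31 and 1.22 RPM in parental cells against 6.52 and 7.21 in TKO cells, 7 bp upstream of the start site. G0S2, which encodes an inhibitor of the lipase ATGL, had promoter peaks in all 4 libraries, and in TKO replicate 1 alone a summit met the E-box rule, 681 bp downstream of the start site. The paper places the G0S2 binding that it studied upstream of the start site, so this summit is another position. TOMM5 and SLC20A1 have an E-box within 1 kb and had promoter peaks in each library, with no E-box under the summit. RPL10A, RPS21 and NUP43 have no CACGTG within 1 kb of a start site, and the first 2 had promoter peaks in all 4 libraries.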

How the data were processed

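Myc ChIP-seq peak lists of 4 libraries, 2 of parental MDA-MB-231 and 2 of TKO cells, were analysed. The other 2 samples are input chromatin and were not analysed here. Per the labels, the authors aligned single-end reads to hg19 with Novoalign 3.08.02 and called peaks with MACS2 2.1.1.20160309 in each library on its own, against input. Each list holds the fold enrichment the authors deposited, which is the ratio of the summit pileup to its local background, their −log10 p-value and −log10 q-value, a deposited score and a summit. How duplicates were handled is not given in the sources used here.

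Since MACS2 derives both fold and p-value from summit reads and background, these could be recovered. For 100% of peaks some whole number of reads gave the deposited −log10 p-value to within 0.002, against 10.2% to 16.4% of up to 500 peaks at 0.9 times the fitted scale. Extension was taken as the narrowest peak and depth followed from the genome background with an assumed genome of 2700000000 bases. RPM is summit reads per 1000000 reads of that depth.

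No peak of the 62539 ended beyond its GRCh37 chromosome, and sequence and annotation were those of GRCh37 and of GENCODE v44 as lifted to it. CACGTG, a palindrome and so the same on both strands, had to lie wholly within 50 bp of the summit. Mitochondrial start sites were left out. Shared sites had a peak in all 4 libraries, and TKO-only sites in both TKO libraries and no parental one.

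The cell lines were compared with a two-sided exact permutation test over libraries, and members with other promoter peaks with an exact sign-flip test over the 4 libraries. Shares carry exact Clopper-Pearson 95% intervals, which cover counting error only. Sites were named by mean percentile of fold, 10 of the shared and 5 of the TKO-only class. Named list genes were those with an E-box peak in all 4 libraries, at most 4 per list by percentile. Some sites and genes that these rules name are not reported here. Members, lists and tests were chosen with earlier results of these data known. Alternatives were other motif, TSS and site windows, thresholds, equal list lengths, each library left out, other scalings and a replicate block. The steps were tested on simulated data. The software was samtools 1.23.1, pysam 0.24.0, matplotlib 3.10.9, pandas 2.3.3, scipy 1.17.1 and numpy 2.4.6 under Python 3.11.15.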

Additional observations from a re-analysis of the deposited data

How the results depend on the processing

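Of 187 results under alternative settings, 169 stayed within their limits, 16 moved and 2 reversed. A result within its limits could still change much in size. The difference in E-box share of promoter peaks, -12.6 percentage points, was -3.30 with equal list lengths and counted as within them. With lists of 3720 peaks each, the ratios of E-box promoter peaks, genes and bound E-boxes fell to 1.02, 1.02 and 1.01. At that length 90.8% of parental E-box sites were found in TKO cells, against 80.5% of promoter sites without an E-box. Of the E-box sites in both TKO lists, 8.07% were TKO-only. The T-flanked share, whose alternatives were all chosen after seeing the data, then differed by -0.0486 percentage points; equal lengths remove most TKO peaks by construction. The difference in members with 2 or more E-boxes was 0.682 percentage points with a motif window of 25 bp, and the cause was not tested.

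The TKO-only share of E-box sites was 47.6% and 36.9% with motif windows of 100 and 25 bp, 40.1% with a TSS window of 500 bp and 46.8% at a fold of at least 5. It was 39.5% with sites joined by summits within 100 bp, and 49.0% with E-box status from TKO peaks alone, an alternative also chosen after seeing the data. Across the fits that each left out 1 library it ranged from 36.7% to 53.3%. Parental sites found in TKO cells were 89.5% with sites joined by summits and 98.6% to 100% with a library left out, the highest without TKO replicate 2, and the cause was not tested.

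With a replicate block the ratio of E-box promoter peaks was 1.96. The smallest possible p was then 0.5, so neither the blocked nor the unblocked test could pass 0.05. The labels do not say whether same-numbered libraries share more than a number. The correlation of their deviations over 542 shared sites was 0.0511, which cannot decide this because it rests on 1 contrast per cell line.

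Precision is limited by 2 libraries per line. Sites are seen only above the MACS2 threshold, so a site missing from a parental list is not shown to lack Myc. Read extension and depth moved with the cell line and cannot be told apart from it.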
